A study of Rattus norvegicus with 12 samples.

Results

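The complement genes described here encode the C1q chains (C1qa, C1qb, C1qc), the C1s protease, the central components C3 and C4 (C4a), the C3a receptor (C3ar1) and the inhibitors C1 inhibitor (Serping1) and CD59 (Cd59). Every non-control probe whose name in the array files or whose current RefSeq symbol was one of these 9 genes was taken, which gave 13 of 41012 probes and 9 of 15661 named genes. RNA came from micropunches of the rostral ventrolateral medulla (RVLM), a brainstem region whose neurons drive sympathetic nerve activity, of male F344 rats, an inbred strain. The rats were young (3 months), middle-aged (12 months) or aged (24 months), with 3 animals per age, all fed freely and given no treatment other than isoflurane before death. Each punch mixes neurons, glia, vessels and blood. The question was how each component differed in RNA level between the ages, and whether initiating, central and regulatory components moved alike.

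Complement is a protein cascade that tags targets and calls in immune cells. In its classical pathway, C1q binds a target, its partner protease C1r activates C1s, C1s cuts C4 and C2, and the enzyme built from their fragments cuts C3, on which the classical, lectin and alternative pathways converge. C1 inhibitor blocks C1r and C1s, CD59 blocks the terminal pore, and the C3a receptor answers a fragment of C3. In the brain, C1q comes mainly from microglia, and mouse work has tied C1q and C3 to the removal of synapses.

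The 12 arrays (replicate 3 of each age was hybridised to 2 arrays) had 43379 non-control spots each, of which 73.5% to 77.1% were well above background and 0 were saturated. All 13 probes were well above background on all 12 arrays, and no member value had to be filled in. Levels are given as log2 of the processed signal minus the array's 75th percentile, so a level of 0 is a probe as bright as that percentile; levels of different probes are not comparable. Errors of levels are SDs over 3 animals and errors of differences are SEs from limma fitted to all 29797 probes kept, with two-sided p-values adjusted by Benjamini-Hochberg over those probes and a threshold of 0.05. Of the RVLM's catecholamine neuron markers, Th, Dbh, Ddc, Slc18a2 and Phox2a were well above background on all 12 arrays, and Slc6a2 did not pass the background filter. The arrays sat on 3 slides, and slide was partly confounded with age: young animals lay on slides 1 and 3, middle-aged on all 3, and aged on slides 2 and 3.

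Between aged and young rats, 7 of 13 member probes (5 of 9 genes, each by its brightest probe) were called higher and 0 lower. Of all probes tested, 1.39% were called higher and 0.463% lower at 24 months. The genes called higher were C3, C4a, C1qa, C1qb and C1qc. C1s, C3ar1, Serping1 and Cd59 did not pass. The median difference of the 13 probes was 0.66 on the log2 scale, against 0.02 over all probes. All 3 aged values lay above all 3 young values for 8 of the 13 probes, against 13.2% of all probes. In whole punches, more cells of a type and more RNA per cell cannot be told apart.

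**Figure D1:**
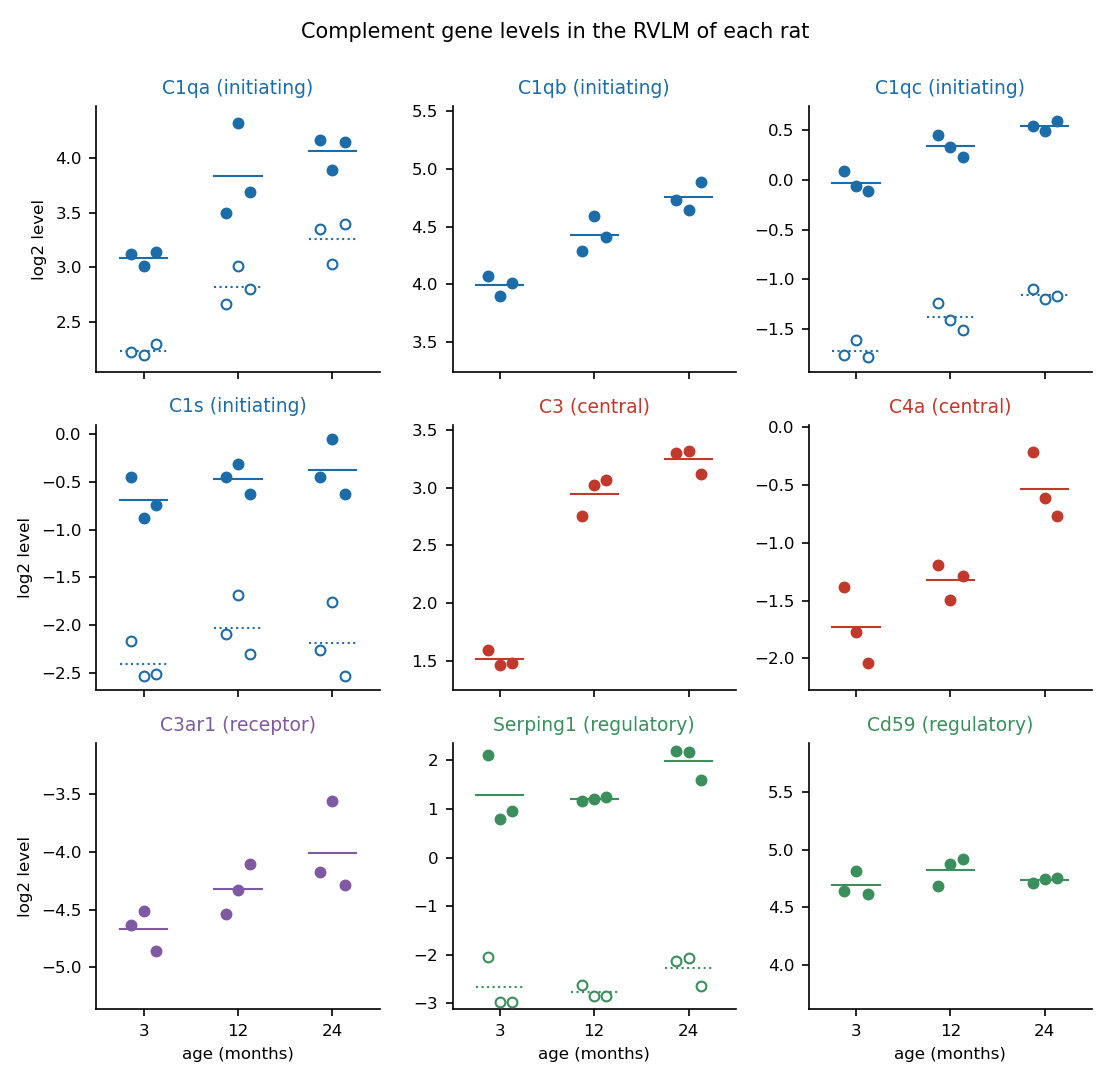
Level of each complement gene in every animal (log2 processed signal minus the array's 75th percentile, y axis) against age in months (x axis). Filled points and solid lines are the animals and mean of the brightest probe, open points and dotted lines those of a dimmer probe, and colours mark the component class. C3 was above the young range in all 3 animals at 12 and at 24 months, C1qb levels did not overlap between ages, and 1 young animal stood with the aged ones for Serping1.

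C1q, the molecule that starts the classical pathway, is built from 3 chains encoded by neighbouring genes. Their 5 probes lie within 15.3 kb on the minus strand of rat chromosome 5 (build rn3, chr5:155657575-155672865). C1qc is written C1qg in the array files. The probes of C1qa and C1qc are shown because these chains were read at separate places along the transcript, so that agreement between the probes of a gene is a check of the reading. In the dimmer C1qc probe the capitals mark 7 GGN codons, which encode glycine, spaced evenly with 2 other codons between them, the period of the collagen-like stalk of C1q.
C1qa brighter probe, chr5:155672617-155672676: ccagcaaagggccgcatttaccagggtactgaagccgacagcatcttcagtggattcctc
C1qa dimmer probe, chr5:155672806-155672865: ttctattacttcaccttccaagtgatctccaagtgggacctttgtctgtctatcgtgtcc
C1qc brighter probe, chr5:155666677-155666736: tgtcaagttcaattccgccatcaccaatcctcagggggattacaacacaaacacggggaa
C1qc dimmer probe, chr5:155669003-155669062: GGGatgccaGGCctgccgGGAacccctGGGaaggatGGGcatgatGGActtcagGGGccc

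All 3 chains rose between 3 and 24 months. C1qb, the B chain (probe at chr5:155657575-155657634), had levels of 4.07, 3.90 and 4.01 in young rats, 4.29, 4.59 and 4.41 in middle-aged rats and 4.73, 4.65 and 4.88 in aged rats. The 3 ages did not overlap. Aged exceeded young rats by 0.76 ± 0.10 (1.69-fold; adjusted p = 0.00774 by limma, n = 3 each). The steps were 0.44 ± 0.10 for middle-aged minus young rats (adjusted p = 0.255) and 0.32 ± 0.10 for aged minus middle-aged rats (adjusted p = 0.368), neither of which passed.

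C1qa, the A chain, had levels of 3.12, 3.01 and 3.14 in young, 3.49, 4.32 and 3.69 in middle-aged and 4.16, 3.89 and 4.15 in aged rats by its brighter probe. Middle-aged replicate 2, the highest of the 9 animals, overlapped the aged group. The brighter probe was 0.98 ± 0.19 higher in aged than in young rats (1.97-fold; adjusted p = 0.0419 by limma, n = 3 each). The dimmer probe gave 1.02 ± 0.12 (2.03-fold; adjusted p = 0.00453), and its 3 ages did not overlap, with aged rats at 3.03 to 3.39, against 2.66 to 3.01 in middle-aged rats. The call of the brighter probe was lost with slide as a block, in a fit of all 12 arrays that treats animal as a random effect (0.87 ± 0.21, adjusted p = 0.11). It was also lost with no filter on dim probes (adjusted p = 0.0977), with the replicate number as a block (0.107) and when any aged or young animal or middle-aged replicate 3 was left out, with adjusted p up to 0.15; that of the dimmer probe held in all of these.

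C1qc, the C chain, had the smallest difference of the chains. Its brighter probe read 0.09, -0.06 and -0.11 in young, 0.45, 0.33 and 0.23 in middle-aged and 0.54, 0.49 and 0.59 in aged rats, again without overlap between ages. It was 0.57 ± 0.09 higher in aged than in young rats (1.49-fold; adjusted p = 0.0136 by limma, n = 3 each), and the dimmer probe gave 0.56 ± 0.09 (1.48-fold; adjusted p = 0.0178). With slide as a block the brighter probe missed the threshold (0.53 ± 0.11, adjusted p = 0.0673) and the dimmer did not (0.61 ± 0.11, adjusted p = 0.0356). The brighter probe also lost its call on leaving out young replicates 2 or 3, or from the 24-month group replicates 1 or 3. The dimmer lost its call when young replicate 1, young replicate 3 or any aged animal was left out, at adjusted p up to 0.0742, and with normexp background correction (0.43 ± 0.09, adjusted p = 0.068).

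Slide 3 held 1 animal of each age, and within it the aged animal exceeded the young by 0.85 for C1qb, 0.97 and 1.08 for the C1qa probes and 0.67 and 0.61 for the C1qc probes. Within slide 1, the middle-aged animal exceeded the mean of 3 young ones by 0.30 for C1qb, and within slide 2, 2 aged animals exceeded 2 middle-aged ones by 0.19. All the C1q differences thus had the same sign within slides as over all animals. After each gene was centred on its young mean, C1qb and C1qc differed by a root mean square of 0.17 over the 9 animals, the smallest value among the 36 pairs of members, and C1qb and C1qa by 0.26.

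C1s, the protease that C1q carries, did not pass in any comparison. Its brighter probe, at chr4:160981661-160981720, read -0.45, -0.88 and -0.75 in young, -0.45, -0.32 and -0.63 in middle-aged and -0.45, -0.05 and -0.63 in aged rats. The ages overlapped. Aged minus young was 0.31 ± 0.17 (adjusted p = 0.414 by limma, n = 3 each), with a 95% interval of -0.07 to 0.70. The second probe, at chr4:160982100-160982159, gave 0.22 ± 0.22 (adjusted p = 0.673). Its interval, -0.28 to 0.72, holds the difference seen for C1qc.

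C3 had the largest difference of the members between aged and young rats. C3 is cut by the enzymes of all 3 activating pathways, and its fragments tag targets for phagocytes. The probe that carries the result, which rn3 places on unassigned sequence (chrUn:64513437-64513496), is shown here with the probe for C4, the other central component.
C3: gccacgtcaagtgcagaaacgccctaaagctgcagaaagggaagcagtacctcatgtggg
C4a: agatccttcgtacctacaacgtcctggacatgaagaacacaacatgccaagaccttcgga

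The C3 levels were 1.59, 1.47 and 1.49 in young, 2.75, 3.03 and 3.06 in middle-aged and 3.30, 3.32 and 3.12 in aged rats. Young rats stood far below both other ages, and the lowest aged value lay just above the highest middle-aged one. Middle-aged rats exceeded young rats by 1.43 ± 0.10 (2.70-fold; adjusted p = 0.00444 by limma, n = 3 each). C3 was the only member called in that comparison, in which 0.134% of all probes were called higher, and it had the second smallest p of the 29797 probes. Aged rats exceeded young rats by 1.73 ± 0.10 (3.32-fold; adjusted p = 0.00036), which ranked 5 by p and 45 by size of rise. The further difference between aged and middle-aged rats was 0.30 ± 0.10 (1.23-fold; adjusted p = 0.405) and did not pass.

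The C3 differences kept their sign on every slide. Within slide 1, the middle-aged animal exceeded the young ones by 1.24. Within slide 3, the aged animal exceeded the young by 1.61 and the middle-aged animal exceeded the young by 1.54. With slide as a block, aged minus young was 1.63 ± 0.10 (adjusted p = 0.000349) and middle-aged minus young 1.37 ± 0.09 (adjusted p = 0.0014). Leaving out any 1 animal kept C3 past the threshold in both comparisons, at adjusted p up to 0.00398 and 0.0459.

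C4, which C1s cuts to open the cascade, rose between 3 and 24 months. The C4a probe (chr20:4117005-4117983, a span of 979 bases for 60 probe bases) also lists a C4b transcript in the array files, so signal from the 2 gene copies cannot be told apart. Levels were -1.38, -1.77 and -2.04 in young, -1.19, -1.50 and -1.29 in middle-aged and -0.21, -0.62 and -0.77 in aged rats. Young and middle-aged rats overlapped, and every aged animal lay above both. Aged minus young was 1.20 ± 0.19 (2.29-fold; adjusted p = 0.0181 by limma, n = 3 each). Aged minus middle-aged was 0.79 ± 0.19 (1.73-fold; adjusted p = 0.284) and middle-aged minus young 0.41 ± 0.19 (adjusted p = 0.83). The call for aged against young rats held with slide as a block (1.18 ± 0.21, adjusted p = 0.0364), and was lost on leaving out young replicates 2 or 3, or from the 24-month group replicates 1 or 2, at adjusted p of 0.0544 to 0.0736, and in a fit of the 2 groups alone (adjusted p = 0.056).

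**Figure D2:**
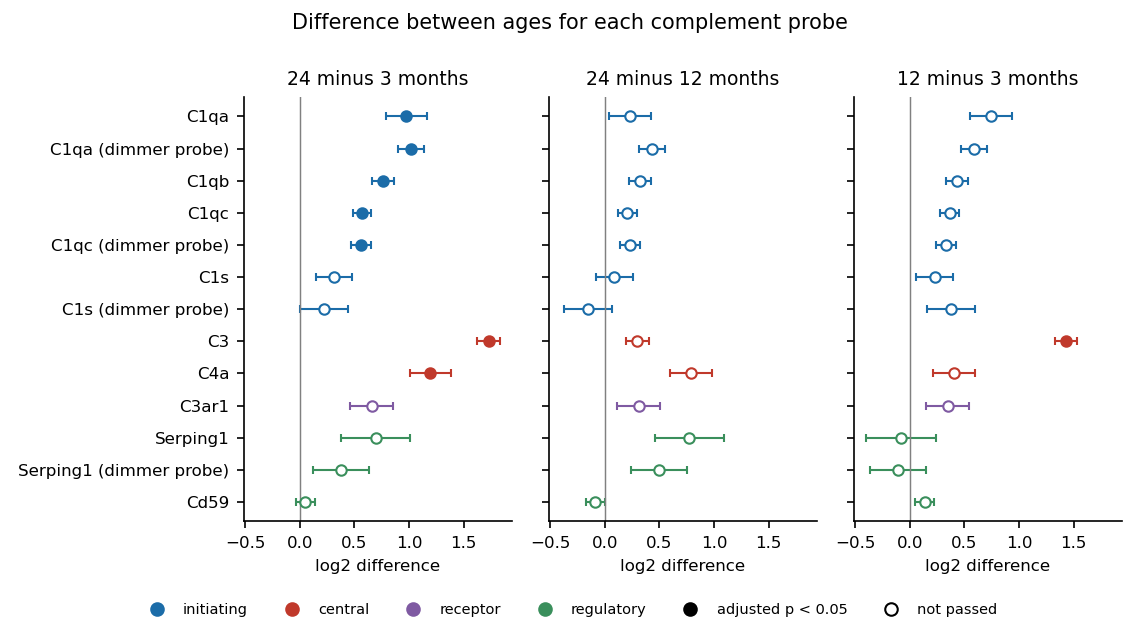
Difference between ages on the log2 scale (x axis, with SE bars from the limma fit, n = 3 animals per age) for the 13 probes, ordered by component class. Filled points passed an adjusted p of 0.05 over all 29797 probes. C3 was called at 12 minus 3 months, 7 probes were called at 24 minus 3 months, and none at 24 minus 12 months.

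The 250 bases before the annotated start of 3 genes that rose are printed as examples of genes called higher in aged than in young rats, with RefSeq's sequence on the GRCr8 build. Capitals mark matches, on either strand, to the letters GAGGAA (the core read by PU.1, the main myeloid factor), TTGCNNAA (C/EBP), TTCNNNGAA (STAT) and TGANTCA (AP-1).
C1qa, chr5:154419934-154420183, minus strand: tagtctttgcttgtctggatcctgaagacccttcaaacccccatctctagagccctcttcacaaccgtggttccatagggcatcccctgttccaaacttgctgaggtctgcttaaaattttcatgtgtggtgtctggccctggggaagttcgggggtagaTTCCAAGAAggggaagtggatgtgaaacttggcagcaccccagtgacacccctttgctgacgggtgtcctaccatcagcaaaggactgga
C1qb, chr5:154407828-154408077, minus strand: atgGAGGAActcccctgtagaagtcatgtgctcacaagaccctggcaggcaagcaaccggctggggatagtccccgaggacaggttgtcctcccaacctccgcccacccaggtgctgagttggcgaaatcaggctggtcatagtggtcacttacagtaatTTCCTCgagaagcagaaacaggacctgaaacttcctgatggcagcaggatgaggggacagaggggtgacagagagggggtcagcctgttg
C3, chr9:2201340-2201589, minus strand: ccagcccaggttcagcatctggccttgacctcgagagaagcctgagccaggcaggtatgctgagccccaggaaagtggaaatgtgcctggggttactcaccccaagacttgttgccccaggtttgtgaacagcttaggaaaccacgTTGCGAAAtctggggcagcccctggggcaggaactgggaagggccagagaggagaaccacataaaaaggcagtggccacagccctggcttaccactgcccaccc

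C1qa held 1 STAT match, C1qb held 2 PU.1 core matches (1 on each strand) and C3 held 1 C/EBP match, so the 3 windows had no match in common. Of 27457 windows of this length in the RefSeq table, 23.2% held GAGGAA, 9.2% TTGCNNAA, 7.5% TTCNNNGAA and 6.4% TGANTCA. The C3ar1 window held 1 AP-1 match and the C4a window held no match; for these genes the start used by the table lies inside the full annotated gene span, so the windows overlap it. A match describes letters only. C1qc, C1s, Serping1 and Cd59 were not matched in the table.

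The C3a receptor, C3ar1, did not pass in any comparison. Its levels were -4.64, -4.51 and -4.86 in young, -4.53, -4.33 and -4.10 in middle-aged and -4.18, -3.56 and -4.29 in aged rats. All aged animals lay above all young ones, and the middle-aged group overlapped both. Aged minus young was 0.66 ± 0.20 (1.58-fold; adjusted p = 0.167 by limma, n = 3 each), which did not pass. Both arrays of middle-aged replicate 3 disagreed by 1.00 on the log2 scale, against a median of 0.06 over all probes, and with slide as a block the difference between aged and young rats was 0.14 ± 0.27 (adjusted p = 0.884).

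Among the regulators, Serping1 encodes C1 inhibitor, the main plasma inhibitor of C1r and C1s. Its brighter probe (chr3:67865200-67865259) read 2.12, 0.80 and 0.96 in young, 1.17, 1.21 and 1.25 in middle-aged and 2.20, 2.16 and 1.59 in aged rats. Every aged animal lay above every middle-aged one, while young replicate 1 lay within the aged range. Aged minus young was 0.69 ± 0.32 (adjusted p = 0.349 by limma, n = 3 each), aged minus middle-aged 0.78 ± 0.32 (1.71-fold; adjusted p = 0.456) and middle-aged minus young -0.08 ± 0.32 (adjusted p = 1). The second probe (chr3:67871491-67872830) read -2.04, -2.97 and -2.96 in young, -2.61, -2.84 and -2.84 in middle-aged and -2.12, -2.06 and -2.64 in aged rats. By this probe young replicate 1 lay above all aged animals, and aged replicate 3 lay just below middle-aged replicate 1. It gave 0.38 ± 0.26 for aged minus young (adjusted p = 0.52).

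The Serping1 values of the young group turned on young replicate 1. Without it, aged minus young was 1.11 ± 0.18 (adjusted p = 0.0338 by limma) and middle-aged minus young 0.33 ± 0.18 (adjusted p = 0.928) for the brighter probe. The second probe still did not pass between aged and young rats (0.69 ± 0.18, adjusted p = 0.148), and aged minus middle-aged kept its value of 0.78 by the brighter probe (adjusted p = 0.255). The same animal was high in fibroblast and meninges markers. The median of 10 such markers stood 0.61 above the young mean in young replicate 1, against -0.385 and -0.224 in the other young rats, -0.571 to -0.379 in middle-aged and -0.569 to -0.489 in aged rats. Their summed linear level, in which Ptgds weighs most (a log2 level of 7.83 in young replicate 1), was 263.6 in that animal, against 117.7 and 118.2 in the other young rats, 126.4 to 152.0 in middle-aged and 155.1 to 170.1 in aged rats. None of these 10 markers (such as Col1a2, Igf2 and Ptgds) was at background, and 0 of the 10 passed between aged and young rats, with a median difference of -0.52. The part of such tissue in the Serping1 values was not tested. Without young replicate 1, 6 of the 13 member probes were called higher in aged than in young rats, among them Serping1 itself, C3 (1.77), C4a (1.37) and C1qb (0.80). Of all probes, 319 were called higher in that fit, against 414 with all animals. The brighter C1qa probe (adjusted p = 0.112 by limma) and the dimmer C1qc probe (0.0642) lost their calls there, while Serping1 gained one by its brighter probe.

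Cd59, a membrane-anchored protein that stops the terminal pore from forming, did not pass in any comparison. Levels were 4.64, 4.81 and 4.62 in young, 4.68, 4.88 and 4.92 in middle-aged and 4.71, 4.75 and 4.76 in aged rats. Aged minus young was 0.05 ± 0.09 (adjusted p = 0.831 by limma, n = 3 each), with a 95% interval of -0.15 to 0.25. That interval lies below the lower bound of 0.37 for the brighter C1qc probe. RefSeq's current symbol for this gene is Cd59b.

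**Figure D3:**
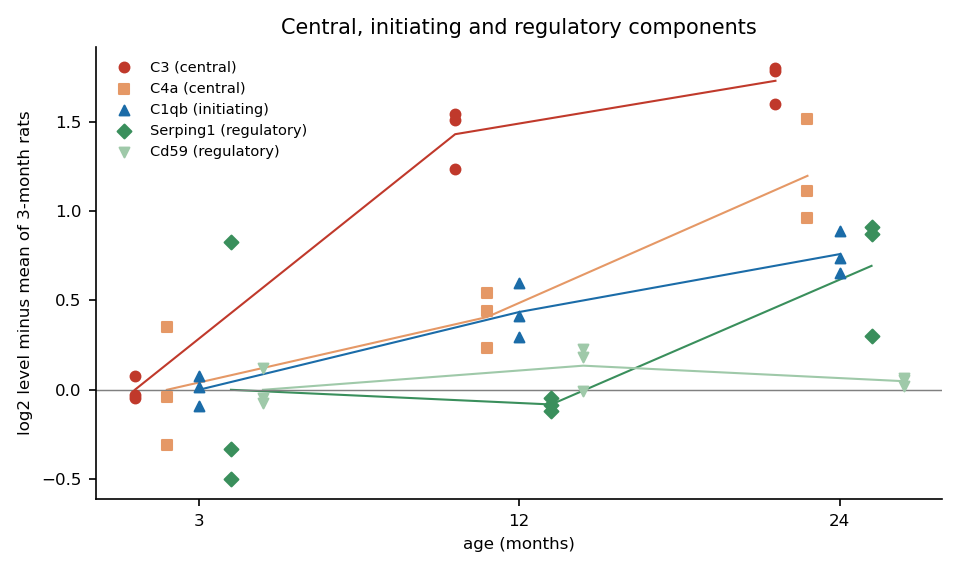
Level of 5 components in each animal minus the mean of the 3 young animals (log2, y axis) at 3, 12 and 24 months (x axis), with lines through group means and each gene shifted sideways for legibility. C3 reached 1.24 to 1.55 at 12 months, when C4a stood at 0.24 to 0.54, C1qb at 0.30 to 0.60 and Serping1 at -0.12 to -0.05.

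To compare the classes, the log2 difference of 2 probes was taken within each animal and tested for a difference between ages with an exact permutation test over all 1680 assignments of the 9 animals to 3 ages. The smallest p this test can give is 0.00357. C3 minus Serping1, a central component against a regulator, averaged 0.22 ± 0.65 in young, 1.74 ± 0.14 in middle-aged and 1.26 ± 0.23 in aged rats (SD, n = 3 each). It differed between ages (exact permutation p = 0.00357, adjusted over 4 pairs 0.0143), and all 6 older animals lay above all 3 young ones. By 12 months C3 had gained 1.51 on Serping1 on the log2 scale, and by 24 months 1.04. Young replicate 1, high in Serping1, stood at -0.525, against 0.673 and 0.523 in the other young rats, so both gains are smaller without it. The exact permutation test without that animal still passed (adjusted over 4 pairs 0.0143).

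C3 minus C1qb averaged -2.48 ± 0.05 in young, -1.48 ± 0.12 in middle-aged and -1.51 ± 0.23 in aged rats (SD, n = 3 each). C3 therefore gained 1.00 on C1qb by 12 months and -0.02 more by 24 months. The exact permutation p was 0.0357 and 0.0714 after adjustment over the 4 pairs, which missed the threshold. It was 0.0214 to 0.0714 after adjustment when single animals were left out, and passed without aged replicate 2 (0.0429) or aged replicate 3 (0.0214).

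C4a minus C1qb did not differ between ages beyond the spread of the animals (exact permutation p = 0.229, adjusted 0.305), nor did C1qb minus Serping1 (exact permutation p = 0.443, adjusted 0.443). C4a gained -0.03 on C1qb by 12 months and 0.47 between 12 and 24 months. With 3 animals against 3 the smallest two-sided p is 0.1, so no single step could pass. The 2 central components were set side by side after their values were seen and without a test: C3 minus C4a averaged 3.25 in young, 4.27 in middle-aged and 3.78 in aged rats.

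By class, 2 of 2 central and 3 of 4 initiating genes (the C1q chains but not C1s) were called higher in aged than in young rats. So were 0 of 1 receptor and 0 of 2 regulatory genes, against 1.39% of all probes. The differences of Serping1 (0.69 ± 0.32) and C3ar1 (0.66 ± 0.20) were larger than that of C1qc (0.57 ± 0.09), which was called, but so were their SEs. The median differences were 1.46 for the central, 0.66 for the initiating and 0.37 for the regulatory genes. The last is the middle of only 2 values, 0.69 for Serping1 and 0.05 for Cd59. Between 3 and 12 months, 1 of 13 probes (C3) passed, against 0.175% of all probes called in either direction. All middle-aged values lay above all young values for 6 of 13 probes (4 of 9 genes by the brightest probe), against 6.32% of all probes. All aged values lay above all middle-aged values for 7 of 13 probes, against 9.78% of all probes. Between 12 and 24 months, 0 of 13 passed by limma, against 1 of all 29797 probes (0.00336%), which read Pou3f1 (1.27 ± 0.10, adjusted p = 0.0287), named here after its value was seen. At an unadjusted p under 0.05, 7 of the 13 were past that limit between aged and middle-aged rats, against 10.5% of all probes in either direction and 7.09% higher.

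The genes whose centred profile over the 9 animals was closest to that of C3, among 12227 named genes, were Cd86 (root mean square difference 0.21; well above background on 7 of 12 arrays), Lilrb3 (0.21), Ctse (0.22), Trem2 (0.23) and Trim55 (0.23). Lilrb3 was 1.72 ± 0.15 and Ctse 1.72 ± 0.16 higher in aged than in young rats (limma, n = 3 each). Among the 5 closest to C1qb were Gsta1 (0.09), Rasal3 (0.09) and Mgmt (0.09). Mgmt, which repairs alkylated DNA, was 0.90 ± 0.09 higher in aged than in young rats. These lists describe likeness over 9 animals of 3 ages. The same values picked the genes, so the differences given for Lilrb3, Ctse and Mgmt follow from the choice and are no separate result.

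Most tested microglial markers were called higher in aged than in young rats, as were the C1q chains, C3 and C4a. The members C1s, C3ar1, Serping1 and Cd59 did not pass. Of 15 tested markers, 9 were called higher in aged than in young rats by limma and 0 lower, against 1.39% and 0.463% of all probes. The other 6 did not pass. The median difference was 0.81, and 14 of the 15 differences were above 0, all but that of Olfml3 (-0.18 ± 0.17). Among those called higher were Aif1, Cd68, Ctss, Cx3cr1, Laptm5, P2ry12, Trem2 and Tyrobp, and Siglech did not pass the background filter. Trem2, which lets microglia sense lipids, was 1.82 ± 0.12 higher (adjusted p = 0.000469) and P2ry12, an ADP receptor of resting microglia, 1.19 ± 0.11 higher (adjusted p = 0.00221, n = 3 each). The summed linear level of the 15 markers was 61.2 to 69.1 in young, 91.2 to 100.1 in middle-aged and 119.9 to 147.3 in aged rats. Per animal, the median marker stood 0.46, 0.51 and 0.39 above the young mean in middle-aged rats and 0.97, 0.70 and 0.78 in aged rats. C1qb stood at 0.30, 0.60 and 0.41 in the same middle-aged animals and at 0.74, 0.65 and 0.89 in the aged ones. C3 stood at 1.24, 1.51 and 1.55 in middle-aged rats and at 1.78, 1.80 and 1.60 in aged rats, above the median marker in all 6 older animals. It was not above every marker: aged minus young was 1.82 for Trem2 and 1.73 for C3. Middle-aged minus young was 1.09 for Trem2 and 1.43 for C3. The part of cell number in the members' values was not tested.

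**Figure D4:**
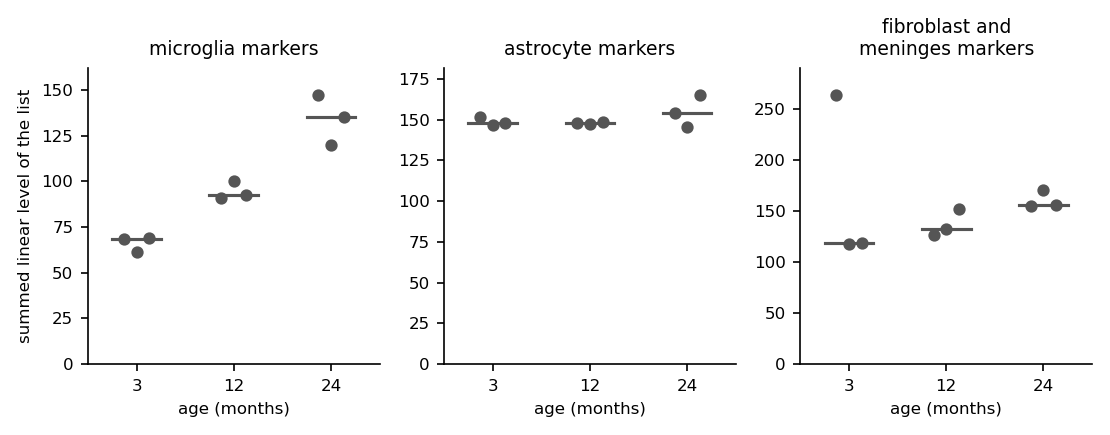
Summed linear level (2 to the power of the log2 level, y axis) of 15 microglia, 10 astrocyte and 10 fibroblast and meninges markers in each animal at 3, 12 and 24 months (x axis), with the median of each age as a line. Microglia sums did not overlap between ages, astrocyte sums stayed between 145.4 and 165.2, and young replicate 1 had the highest fibroblast and meninges sum. In the astrocyte sum Aldoc weighs most (mean log2 level of 6.48 in young rats) and Gfap little (1.56).

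Other cell types gave the following. Astrocytes can make C3, and 0 of 10 astrocyte markers passed between aged and young rats; Gfap, the filament protein of reactive astrocytes, read 1.76, 1.63 and 1.28 in young, 1.64, 1.17 and 1.91 in middle-aged and 2.68, 2.68 and 2.06 in aged rats (adjusted p = 0.102 by limma, n = 3 each). Of 6 tested markers of perivascular macrophages, monocytes and neutrophils, Lyve1 and Pf4 rose and 4 did not pass. Of 6 tested lymphocyte markers, Cd6 rose by its brighter probe. Prf1 was also called higher, but it was well above background on 4 of 12 arrays and so passed the filter only through the aged group, where it was high. The T-cell markers Cd3d, Cd3g and Cd8b were well above background on all 12 arrays and did not pass the test, while Cd3e, Cd8a and the B-cell marker Ms4a1 did not pass the background filter. Summed red blood cell markers were 109.2 to 157.6 in aged and 69.1 to 99.2 in young rats, and 0 of 4 passed. Of 11 oligodendrocyte markers, 3 fell, the myelin genes Mal and Ugt8 among them, and 8 did not pass. The part of these cells in the members' values was not tested.

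Other complement genes were read in the same fit. Of 6 tested genes of the classical and lectin pathways, C2, the protease paired with C4, was 0.44 ± 0.09 higher in aged than in young rats (adjusted p = 0.043 by limma, n = 3 each), and Fcna, a lectin pathway sensor, 0.82 ± 0.14 higher (adjusted p = 0.0226). C1r, the partner of C1s, was 0.30 ± 0.17 apart (adjusted p = 0.428). Masp2, Mbl1, Mbl2 and Colec10 did not pass the background filter. Of 3 alternative pathway genes, Cfp (properdin, which holds the C3-cutting enzyme together) was lower by 0.50 (-0.50 ± 0.09, adjusted p = 0.0236), and Cfb (0.04) and Cfd (0.66, adjusted p = 0.0955) did not pass. In the terminal pathway 0 of 3 tested genes passed, and C5, C7, C8a and C9 did not pass the background filter.

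Clu (clusterin), an inhibitor of the terminal pore, differed by 0.04 ± 0.09 between aged and young rats (adjusted p = 0.863 by limma, n = 3 each). Of the 10 other regulators tested, only Clu is described here, so its value does not stand for that list. Among 8 receptors, Itgb2, the beta chain of the complement receptors that bind C3 fragments, was 1.25 ± 0.09 higher in aged than in young rats (adjusted p = 0.000615) and 0.62 ± 0.09 higher in middle-aged than in young rats (adjusted p = 0.0445). Cd93, once named a C1q receptor and present on endothelium, was lower by 1.22 (-1.22 ± 0.19, adjusted p = 0.0177). Of 8 genes with a C1q domain outside complement, 0 passed, with a median of -0.05.

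With slide as a block, Itgb2 (1.24, adjusted p = 0.000527) and Cd93 (-1.30, adjusted p = 0.0201) kept their calls between aged and young rats. C2, Fcna and Cfp lost theirs, at adjusted p of 0.0885, 0.126 and 0.0625. The same genes lost their calls with normexp background correction (adjusted p of 0.0747, 0.3 and 0.0513 by limma). They also did so with no filter on dim probes (0.0977, 0.06 and 0.0601). With normexp the Fcna difference fell to 0.34 ± 0.11. The call of Itgb2 at 12 months was lost whichever animal was left out and in 6 of 12 other settings, at adjusted p up to 0.209. Leaving out 1 animal kept the calls of C2 between aged and young rats in 1 of 9 cases, of Fcna in 4, of Cfp in 4 and of Cd93 in 6.

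**Figure D5:**
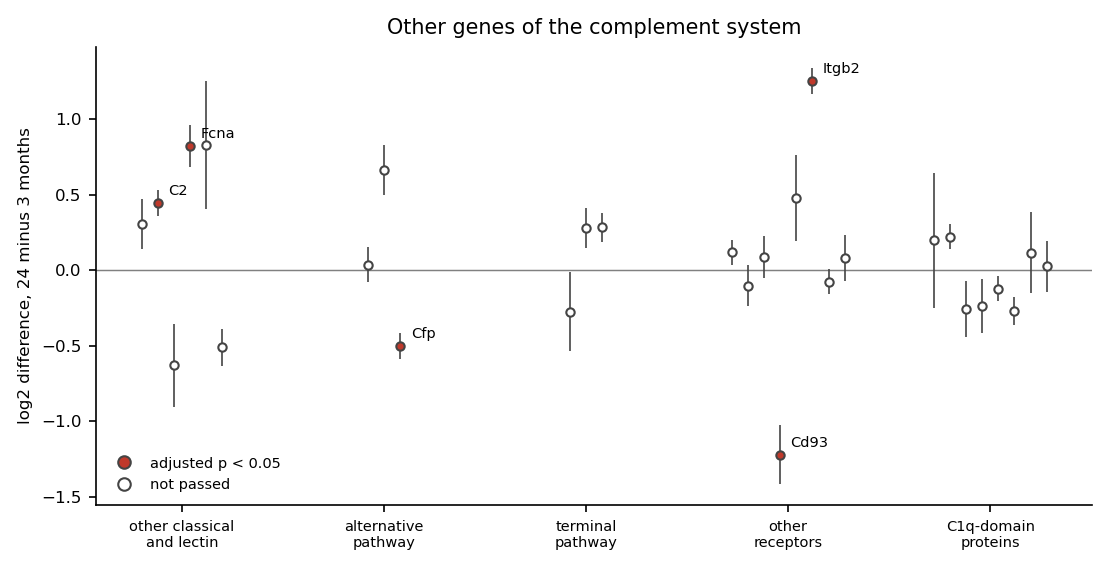
Difference of aged minus young rats (log2, y axis, with SE bars, n = 3 animals per age) for other tested genes of the initiating, alternative and terminal pathways, receptors and C1q-domain proteins, grouped by list (x axis), each by its brightest kept probe. Red points passed an adjusted p of 0.05: C2, Fcna and Itgb2 were higher, and Cfp and Cd93 lower.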

How the data were processed

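The authors deposited fluorescence intensity per spot, extracted with Agilent Feature Extraction 9.5.1.1 per the file headers; the processed signal was background-subtracted and detrended per the file headers, with no scaling between arrays. The deposited flags, 0 or 1 per spot, mark outliers, signal over background and saturation. In the authors' series matrix the deposited value is a score (mean 0, SD 1 per array; column medians -0.0442 to -0.0147; log base unknown) and served as an alternative.

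Outlier spots were left out, spots of a probe averaged, log2 taken and each array's 75th percentile subtracted. Both arrays of replicate 3 were averaged, so the animal was the unit. A probe was kept if all arrays of 1 age or more had it well above background (29797 of 41012), and kept probes of all 9 animals entered 1 fit (limma 3.58.1, R 4.3.3); 25 missing kept values were filled with the mean of the group's other arrays. The fit was tested on simulated data. Python 3.11.15 and scipy 1.17.1 ran the permutation tests. Names came from the files and RefSeq (GRCr8); 20758 probes had none. Genes of the complement lists that passed are named, except some items that are not reported here; a gene is given by its brightest kept probe. Members and lists were chosen with earlier results of these data known. Replicates are separate animals per the labels; their number limits the precision. Alternatives covered background correction, scaling, filter, slide, arrays, groups fitted, replicate number and each animal left out.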

Additional observations from a re-analysis of the deposited data

How the results depend on the processing

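The number of probes called between aged and young rats, 552, was 320 with normexp background correction, 318 with no filter, 320 with slide as a block on 12 arrays, animal being a random effect (680 in that fit without slide) and 280 to 544 with 1 animal left out; member probes called, 7, were 3 to 7 with 1 animal left out (3 without young replicate 3 or aged replicate 1; 4 without young replicate 2 or aged replicate 2 or 3) and 5 to 7 otherwise. Between aged and middle-aged rats, the 1 call became 0 with quantile scaling, no filter, the series matrix or a replicate block, 4 with normexp, 3 with probes above background on every array or 1 probe per gene, 28 on 12 arrays, 2 with 1 array per animal and 0 to 3 with 1 animal left out. Between middle-aged and young rats, 52 became 20 with normexp, 5 with no filter, 31 with slide as a block, 81 on 12 arrays, 32 with the series matrix, 3 with only the 2 groups, 1 with a replicate block and 2 to 18 with 1 animal left out. Replicate numbers do not pair the animals (deviations of same-numbered animals correlated at -0.407 to 0.378); with the replicate block C3 in middle-aged against young rats missed the threshold (1.43, adjusted p = 0.0524, 0 member probes called), and C3 minus Serping1 gave 0.111. C3 minus C1qb gave an adjusted exact permutation p of 0.185 within the replicate block and 0.0214 to 0.0714 with 1 animal left out. Signs turned, all in differences that did not pass, for Cd59 in aged minus young rats with quantile scaling (-0.0074), C3ar1 in middle-aged minus young with slide as a block (-0.0442), the Serping1 probes in middle-aged minus young without young replicate 1 (0.331 and 0.198; -0.330 to 0.331 and -0.267 to 0.198 over animals left out) and the C1s probes in aged minus middle-aged without aged replicate 2 (-0.0745), middle-aged replicate 2 (0.0166) or aged replicate 3 (0.0182), with ranges of -0.0745 to 0.215 and -0.366 to 0.0182 over animals left out. Within slide 3 alone (1 animal per age), the dimmer C1s probe in aged minus young rats (-0.0642) and the brighter Serping1 probe in middle-aged minus young (0.209) also turned, as did the dimmer Serping1 probe (0.046) and Cd59 (-0.0176) in middle-aged minus young within slide 1. The causes were not tested.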
